A study of Mus musculus with 12 samples.

Results

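A2 reactive astrocyte genes are transcripts first reported as raised in astrocytes after ischaemia, and 8 of them were described here across 12 libraries of cultured mouse astrocytes. They are Ptx3, Emp1, Cd109, Tm4sf1, Sphk1, B3gnt5, Tgm1 and Slc10a6, chosen by name from a table of 54532 genes. All 8 were in the table, and 7 passed the filter of at least 1 FPKM in at least 2 libraries that left 14014 genes for testing. Slc10a6 did not pass, and B3gnt5 passed only through the AD control and AD model libraries. FPKM is the number of fragments of a gene scaled to its length and to a library size, which here was not the total of reads.

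The cells were astrocytes grown from the cortex and hippocampus of C57BL/6 adults, dissociated with trypsin and papain, with no sorting of cells described. The 12 libraries formed 6 groups of 2 in 3 experiments. The Ogt cKO group came from 4-month-old mice with a conditional knockout of Ogt, the X-linked enzyme that attaches O-GlcNAc to proteins, and was set against the cKO control of the same age. Both groups carry the same genotype label, Glast-CreERT2::Ogtfloxp/Y, and were told apart by the sample descriptions. Glast drives Cre in astrocytes and related cells, and the labels mention no tamoxifen. The AD model group came from a 5X APP mouse model of Alzheimer's disease and was set against wild-type AD control mice, and the age of both is 6 months by their own labels but 5 months by the text on the series. The Aβ-treated group was wild-type astrocytes of 2-month-old mice kept in 20 µM amyloid-beta 1-42 for 72 hours (73 hours in the label of replicate 2), set against untreated wild-type Aβ control astrocytes of the same age. Nothing in the labels says that replicates came from separate animals or cultures, so p-values measure the spread between these samples, which may be technical. That spread was estimated for each gene over all 12 libraries, so a gene has the same SE in the 3 experiments.

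Reactive astrocytes are described in the literature by 3 panels of genes. A1 genes were reported after bacterial endotoxin and include complement and antigen presentation genes, A2 genes were reported after ischaemia, and pan-reactive genes were raised in both. The A2 panel holds proteins of unlike kinds. Ptx3 encodes a secreted pentraxin that binds microbes, complement and matrix. Emp1, Tm4sf1, Cd109 and Slc10a6 encode membrane proteins, and Sphk1, B3gnt5 and Tgm1 encode enzymes. Several A2 genes are not restricted to astrocytes. Tm4sf1 is abundant in endothelial cells, and Tgm1 builds the cornified envelope of skin.

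The genes lie on 7 chromosomes in mm10. Ptx3 (ENSMUSG00000027832) spans chr3:66219910-66225805 and Tm4sf1 (ENSMUSG00000027800) chr3:57285611-57301988. Emp1 (ENSMUSG00000030208) spans chr6:135362545-135383173, Cd109 (ENSMUSG00000046186) chr9:78615546-78716253 and Sphk1 (ENSMUSG00000061878) chr11:116530925-116536674. B3gnt5 (ENSMUSG00000022686) spans chr16:19760208-19772753, Tgm1 (ENSMUSG00000022218) chr14:55700009-55713926 and Slc10a6 (ENSMUSG00000029321) chr5:103605711-103629403. All are protein coding, and each value covers the whole gene. Strand use in counting is not given, so reads of Tgm1, Sphk1 and Cd109 cannot be told from those of the antisense genes Gm49067, Gm29292 and 4921509A06Rik, which were at no more than 1.59, 0.752 and 0.441 FPKM.

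Promoter windows of RefSeq (GRCm38.p6, the assembly of mm10), from 250 bases before to 50 after an annotated start, matched 7 of the 8 genes with 13 windows. Those of Ptx3 (chr3:66219637-66219936, plus strand), Tm4sf1 (chr3:57301939-57302238, minus strand), Emp1 (chr6:135362681-135362980, plus strand) and Tgm1 (chr14:55713443-55713742, minus strand) are shown because these are 4 of the 5 genes that rose in the Ogt cKO. The fifth, Sphk1, has 5 annotated windows and is described without its letters. For Emp1 and Tgm1 the window with matches is shown, and the other window of each, chr6:135367243-135367542 and chr14:55713039-55713338, held none of the motifs searched. Each is written 5′ to 3′ on the strand of the gene, with capitals for letters that match the NF-kB motif, the AP-1 motif TGANTCA or the STAT motif TTCNNNGAA on either strand.
Ptx3: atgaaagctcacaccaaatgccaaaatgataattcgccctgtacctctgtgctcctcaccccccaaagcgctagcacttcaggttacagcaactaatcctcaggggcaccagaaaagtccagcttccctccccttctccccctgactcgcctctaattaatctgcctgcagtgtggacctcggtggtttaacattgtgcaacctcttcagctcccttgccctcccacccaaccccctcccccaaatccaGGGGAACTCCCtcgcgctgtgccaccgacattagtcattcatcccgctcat
Tm4sf1: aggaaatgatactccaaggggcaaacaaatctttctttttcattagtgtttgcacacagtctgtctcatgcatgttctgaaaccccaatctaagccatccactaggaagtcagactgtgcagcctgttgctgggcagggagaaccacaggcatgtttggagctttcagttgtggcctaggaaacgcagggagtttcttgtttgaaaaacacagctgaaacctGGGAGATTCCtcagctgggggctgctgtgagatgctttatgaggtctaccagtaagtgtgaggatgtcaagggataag
Emp1: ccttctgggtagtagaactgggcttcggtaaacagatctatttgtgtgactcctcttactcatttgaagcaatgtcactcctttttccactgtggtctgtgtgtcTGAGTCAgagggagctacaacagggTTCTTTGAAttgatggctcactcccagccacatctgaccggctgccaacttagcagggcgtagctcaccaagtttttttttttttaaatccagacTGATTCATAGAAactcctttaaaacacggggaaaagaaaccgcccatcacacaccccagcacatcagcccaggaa
Tgm1: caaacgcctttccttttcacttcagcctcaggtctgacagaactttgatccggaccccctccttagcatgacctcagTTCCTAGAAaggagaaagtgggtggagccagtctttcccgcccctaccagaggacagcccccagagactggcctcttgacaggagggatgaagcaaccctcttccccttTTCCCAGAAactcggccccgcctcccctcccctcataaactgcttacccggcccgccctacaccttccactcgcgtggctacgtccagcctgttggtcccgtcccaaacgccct
The NF-kB motif was present in the windows of Ptx3 and Tm4sf1. In Ptx3, 2 overlapping matches covered bases 250 to 260 of the window, across the annotated start. Emp1 held 2 AP-1 and 2 STAT matches, and its AP-1 match TGATTCA at bases 226 to 232 shared letters with the STAT match TTCATAGAA at bases 229 to 237. Tgm1 held 2 STAT matches. Of the 5 windows of Sphk1, an overlapping pair held an AP-1 and a STAT match and 1 of that pair also an NF-kB match. Over all 32851 windows of the table, 4.51% held the NF-kB motif, 7.81% AP-1 and 8.3% STAT, against 3, 3 and 4 of the 13 windows of these genes. The SRF (CArG) motif, searched by name, was in 0 of the 13 windows and in 1.63% of all windows. The motif GGAATG, known as the TEAD motif, was in 3 of the 13 windows and 14.7% of all windows. GGGCGG was in 3 and 35.7%, and TATAAA in 1 and 13.6%. A match describes letters, not binding.

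Between 16418852 and 18705309 gene reads were recovered per library. On a gene of 1 kilobase, 3 reads were worth 0.145 to 0.191 FPKM, which reflects counting error alone. Replicates correlated across genes at r = 0.985 to 0.991 in 4 groups, but at 0.944 in the AD model and 0.948 in the AD control. The Ogt cKO libraries correlated at 0.871 to 0.894 with their own control and at 0.975 to 0.981 with the Aβ control of another experiment. The AD model libraries likewise correlated at 0.865 to 0.907 with their own control and at 0.925 to 0.974 with the Aβ-treated libraries. Whether libraries were exchanged between groups was not tested, and every change below follows the groups as labelled. Ogt was at 11.04 and 12.03 FPKM in the Ogt cKO libraries, against 20.8 and 24.7 in the cKO control, and at 7.85 to 22.7 FPKM in the 8 other libraries. The fall in the Ogt cKO (log2 change -0.92 ± 0.30, adjusted p = 0.038 by limma) did not pass with any 1 of the 4 libraries left out (adjusted p up to 0.17). The 8 neuron markers summed to 45.0 to 183 FPKM over the libraries, most of it from Tubb3 (group means 42.2 to 140.04 FPKM), with Snap25 at no more than 0.0187 FPKM in the group means. The summed microglia and macrophage markers were at 1189 to 9637 FPKM and the summed astrocyte markers at 173 to 774. Of the microglia and macrophage markers, Lyz2 alone had group means of 740 to 4958 FPKM. Gfap, the astrocyte filament gene, averaged 51.7 FPKM in the Ogt cKO and 282 in its control, 140.1 in the AD model and 260 in its control, and 53.3 in the Aβ-treated group and 61.2 in its control. In such bulk samples fewer cells of a type and less RNA per cell cannot be told apart.

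**Figure D1:**
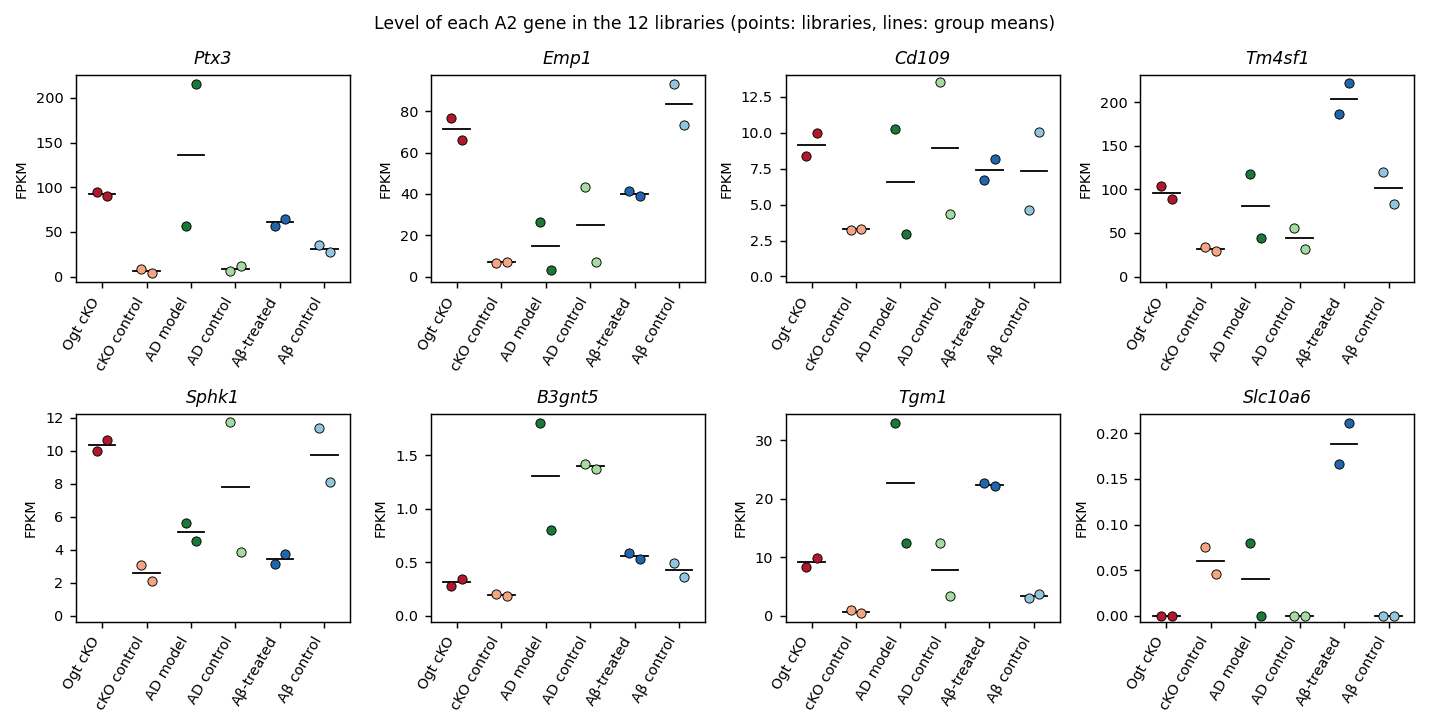
Level of the 8 A2 genes in FPKM (linear axes from 0, 1 panel per gene) in each of the 12 libraries, with points for libraries and lines for group means of 2. The 7 tested genes were higher in both Ogt cKO libraries than in both cKO control libraries, as were 41.6% of all genes tested. The AD libraries of 1 group lay far apart for most genes.

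The first comparison set Ogt cKO astrocytes against their control. Ptx3, Emp1, Tm4sf1, Sphk1 and Tgm1 rose in the Ogt cKO, which is 5 of the 7 tested genes, where 22.6% of all genes tested rose. None of the 7 fell, where 19.8% of all genes did, and 42.3% of all genes changed in either direction. With libraries rescaled to the total of recovered reads, the median of all genes shifted by -0.19 and the split of all calls was 2218 higher and 4022 lower, in place of 3165 and 2769, and the 7 genes stayed higher. The 7 tested genes had non-overlapping groups with the Ogt cKO higher, as did 41.6% of all genes (42.2% did so with it lower). Their median log2 change was 1.67, where the median of all genes was -0.0024, a value that the scaling of the deposited table holds near 0. The largest ratio of means was 14.9-fold for Ptx3 and the smallest 1.61-fold for B3gnt5.

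Ptx3 was at 94.4 and 90.1 FPKM in the Ogt cKO, against 8.55 and 3.85 FPKM in the cKO control. Both knockout libraries lay far above both control libraries, with a log2 change of 3.78 ± 0.57 (SE, adjusted p = 0.0024). Among the membrane proteins, Emp1, a PMP22 family protein that spans the membrane several times, was at 76.6 and 66.1 FPKM in the Ogt cKO, against 6.59 and 7.03 in the cKO control. Replicates of Emp1 differed little in both groups, and the log2 change was 3.21 ± 0.89 (adjusted p = 0.020). This SE is not the spread of the Ogt cKO experiment alone, because all 12 libraries entered it. The Emp1 replicates lay 8.64-fold apart in the AD model and 6.28-fold apart in the AD control. Tm4sf1 was at 104 and 89.1 FPKM in the Ogt cKO, against 33.8 and 29.2 in the control (log2 change 1.58 ± 0.42, adjusted p = 0.018). Cd109, a membrane-anchored relative of alpha-2-macroglobulin that binds the TGF-beta receptor in human skin cells, was at 8.36 and 9.97 FPKM, against 3.22 and 3.31 in the control. Its groups did not overlap, and the difference did not pass the test (log2 change 1.25 ± 0.56, adjusted p = 0.098).

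Among the enzymes, Tgm1, a transglutaminase that crosslinks proteins, was at 8.30 and 9.94 FPKM in the Ogt cKO, against 1.01 and 0.445 FPKM in the cKO control. The mean was 12.6-fold higher, with a log2 change of 2.57 ± 0.52 (adjusted p = 0.0066). Sphk1, which makes the lipid signal sphingosine-1-phosphate, was at 10.0 and 10.6 FPKM, against 3.05 and 2.10 in the control (log2 change 1.67 ± 0.38, adjusted p = 0.0095). B3gnt5, which starts the lacto-series of glycolipids, rested on 23 and 29 reads in the Ogt cKO and 20 and 20 in the control. At 0.281 and 0.348 FPKM against 0.204 and 0.187 it did not pass the test (log2 change 0.14 ± 0.20, adjusted p = 0.59). Slc10a6, a transporter of sulphated steroids, had 0 reads in both Ogt cKO libraries and 3 and 2 reads in the control libraries, which is at the floor of 3 reads per library.

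The rise of Ptx3 passed with each single library left out (log2 change 3.29 to 4.26). The other rises did not all keep their calls, and fewer of all genes passed in such fits as well. Emp1 and Tm4sf1 lost their calls with any 1 of the 4 libraries left out (adjusted p up to 0.096), Sphk1 without Ogt cKO replicate 1 (0.051), Ogt cKO replicate 2 (0.052) or cKO control replicate 2 (0.071), and Tgm1 without cKO control replicate 2 (0.054). Without the low-value filter Emp1 had an adjusted p of 0.057, and with the 4 libraries alone, a fit that called 62.1% of all genes, Cd109 passed as well (0.0018).

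**Figure D2:**
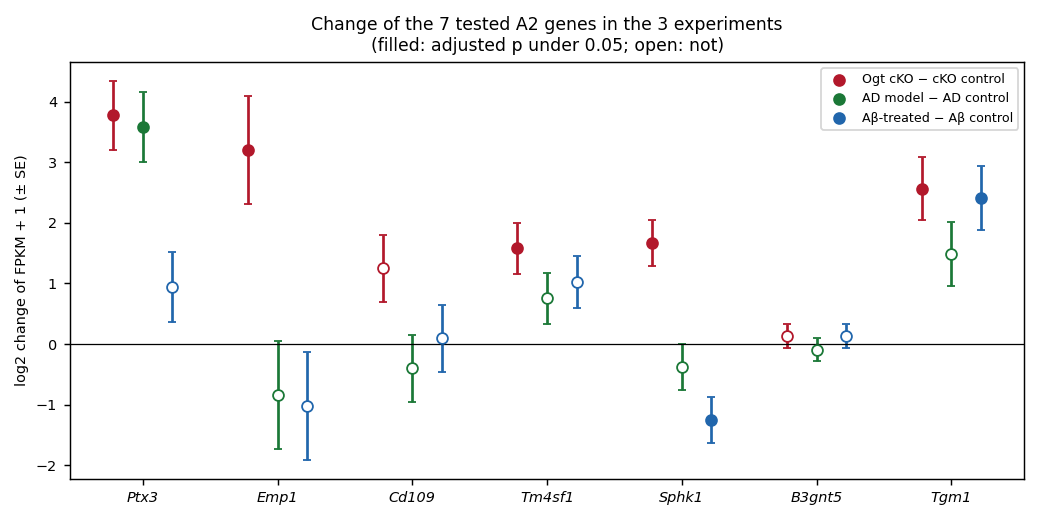
Change of each of the 7 tested A2 genes on the log2(FPKM + 1) scale (vertical axis, bars are SE) in the 3 experiments, each as the difference of 2 means of 2 libraries. Filled points passed the test at an adjusted p of 0.05 and open points did not: 5 passed in the Ogt cKO, 1 in the AD model and 2 in the Aβ-treated group, 1 of these a fall.

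The second comparison set AD model astrocytes against wild-type ones. Ptx3 rose in the AD model, and it was 1 of 7 tested genes to do so, where 9.80% of all genes rose, 7.27% fell and 17.1% changed in either direction. By quantile normalization the split of all calls was 1289 higher and 1328 lower, in place of 1373 and 1019, and with the 4 AD libraries alone it was 239 and 39. The median log2 change of the 7 genes was -0.09, beside -0.02 for all genes. Ptx3 was at 56.3 and 216 FPKM in the AD model, against 5.69 and 11.9 in the AD control. Both model libraries were above both control libraries, the mean was 15.5-fold higher, and the log2 change was 3.58 ± 0.57 (adjusted p = 0.0033). Tgm1 was at 32.9 and 12.5 FPKM in the AD model, against 12.4 and 3.33 in the AD control. The lower model library and the higher control library were almost level, and the difference did not pass (log2 change 1.49 ± 0.52, adjusted p = 0.090). These were the 2 genes with non-overlapping groups, where 21.8% of all genes did not overlap with the AD model higher.

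The remaining genes had overlapping groups in the AD experiment. Tm4sf1 was at 118 and 44.0 FPKM in the AD model and 55.5 and 32.1 in the AD control (adjusted p = 0.28). Emp1 was at 26.2 and 3.03 FPKM in the AD model and 43.4 and 6.91 in the AD control (0.59). Cd109 was at 10.2 and 2.96 FPKM in the model and 13.5 and 4.35 in the control (0.69). In each AD group replicate 1 lay above replicate 2 for these 3 genes. Between libraries of the same replicate number, Tm4sf1 and Tgm1 were higher in the AD model in both pairs, and Emp1 and Cd109 lower in both. With the replicate number as a block none of these 4 passed (adjusted p = 0.17, 0.062, 0.50 and 0.69 for Tm4sf1, Tgm1, Emp1 and Cd109). Sphk1 was at 5.63 and 4.55 FPKM in the AD model and 11.7 and 3.87 in the AD control (0.57). B3gnt5 reached its highest levels in this experiment, at 1.81 and 0.803 FPKM in the AD model and 1.42 and 1.37 in the AD control (0.81). Slc10a6 had 3 and 0 reads in the AD model and 0 and 0 in the AD control.

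Marker sums differed between AD replicates, with the direction depending on the list. The summed level of 11 endothelial markers, all detected in every library, was 464 and 124 FPKM in AD model replicates 1 and 2, and 229 and 91.3 in AD control replicates 1 and 2. The summed level of 10 pericyte and smooth muscle markers was 759 and 210.2 FPKM in the model and 3843 and 1720 in the control. Most of it came from Acta2 (group means 410 FPKM in the model and 2305 in the control), and Kcnj8 or Abcc9 was at 0 in some libraries. The summed microglia and macrophage markers were instead higher in replicate 2, at 3786 and 6329 FPKM in the model and 1189 and 1796 in the control. So were the summed astrocyte markers, at 376 and 400 FPKM in the model and 463 and 575 in the control. Ptx3 was also higher in replicate 2 of each AD group. The part of these cells in the levels of the A2 genes was not tested. The rise of Ptx3 passed with each single library left out and did not pass with the 4 AD libraries alone (adjusted p = 0.10). Tgm1 rose without AD model replicate 2 (2.15, adjusted p = 0.031) or AD control replicate 1 (2.30, 0.014), Tm4sf1 rose without AD model replicate 2 (1.46, 0.022), and Sphk1 fell without AD control replicate 2 (-1.07, 0.021).

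The third comparison set wild-type astrocytes kept in amyloid-beta against untreated ones. Tgm1 rose and Sphk1 fell in the Aβ-treated group. These are 1 rise and 1 fall among 7 tested genes, where 20.8% of all genes rose, 15.1% fell and 35.9% changed in either direction. By quantile normalization the split of all calls was 2371 higher and 2634 lower, in place of 2915 and 2110. The median log2 change of the 7 genes was 0.13, beside -0.04 for all genes. Tgm1 was at 22.7 and 22.1 FPKM in the Aβ-treated group, against 3.12 and 3.71 in the Aβ control. The treated replicates were nearly equal, and the mean was 6.55-fold higher (log2 change 2.41 ± 0.52, adjusted p = 0.0076). Sphk1 was at 3.13 and 3.74 FPKM in the Aβ-treated group, against 11.4 and 8.08 in the Aβ control. Both treated libraries lay below both controls, with a log2 change of -1.26 ± 0.38 (adjusted p = 0.030).

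Tm4sf1 reached its highest level in the treated cells, at 186 and 222 FPKM, against 119.6 and 82.9 in the Aβ control. The treated libraries were both higher, without passing the test (log2 change 1.02 ± 0.42, adjusted p = 0.088). Ptx3 was at 56.9 and 64.3 FPKM in the Aβ-treated group, against 35.2 and 27.4 in the control (0.94 ± 0.57, adjusted p = 0.23). Emp1 was at 41.2 and 39.2 FPKM, against 93.2 and 73.3 in the control (-1.02 ± 0.89, adjusted p = 0.39). Both of these genes also had non-overlapping groups, Ptx3 with the treated group higher and Emp1 with it lower. Cd109 was at 6.72 and 8.15 FPKM in the treated group, between the control libraries at 4.62 and 10.1 (adjusted p = 0.91). B3gnt5 was at 0.591 and 0.528 FPKM, against 0.489 and 0.366 in the control (adjusted p = 0.63). In all, 4 tested genes did not overlap with the treated group higher and 2 with it lower, beside 36.6% and 40.2% of all genes.

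Slc10a6 had 6 and 8 reads in the Aβ-treated libraries, at 0.167 and 0.211 FPKM, and 0 reads in both Aβ control libraries, where 3 reads would be 0.0835 and 0.0813 FPKM. It was too low to enter the test. The fall of Sphk1 did not pass with any 1 of the 4 libraries left out (adjusted p = 0.053 to 0.175) or with no filter on low values (0.073), and the rise of Tgm1 did not without Aβ control replicate 1 (0.054). Fewer of all genes passed with 1 Aβ library left out as well. With the 4 Aβ libraries alone, where 41.5% of all genes were called, 5 of the 7 genes passed: Ptx3 (adjusted p = 0.0095), Tm4sf1 (0.016) and Tgm1 as rises, Emp1 (0.0064) and Sphk1 as falls.

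The effects of the experiments were then set against each other, which rests on 2 separate control groups each time. Emp1 and Sphk1 changed more in the Ogt cKO than in the AD model, by 4.05 ± 1.26 (adjusted p = 0.044) and 2.05 ± 0.53 (0.025) on the log2 scale. That is 2 of 7 genes, where the effect in the Ogt cKO was higher for 13.7% of all genes, lower for 11.9% and different in either direction for 25.6%. The Ogt cKO effect also exceeded the Aβ effect for Emp1 (4.23 ± 1.26, adjusted p = 0.020), Sphk1 (2.93 ± 0.53, 0.0025) and Ptx3 (2.84 ± 0.81, 0.017), or 3 of 7 genes, beside 25.7% of all genes higher, 26.6% lower and 52.3% in either direction. Sphk1 thus rose in the Ogt cKO and fell with Aβ, and the difference of these effects passed with each single library left out. Between the AD model and Aβ, 0 of 7 genes differed by limma, beside 6.14% of all genes (1.52% higher, 4.62% lower), with 1 (Ptx3, 2.65 ± 0.81, adjusted p = 0.092) at an unadjusted p under 0.05 and 0 by voom on recovered reads. Ptx3 passed there without AD model replicate 1 (3.60, adjusted p = 0.013) and Sphk1 without AD control replicate 1 (1.58, 0.022). With 1 library left out, the difference between Ogt cKO and AD model ran from 2.67 to 5.43 for Emp1 and from 1.36 to 2.75 for Sphk1. The Emp1 difference between Ogt cKO and AD model lost its call in 11 alternatives, among them each left-out library of the cKO experiment, AD model replicate 2 (2.67, adjusted p = 0.10) and AD control replicate 1 (2.81, 0.12). The Sphk1 difference from the AD model lost its call without Ogt cKO replicate 1 (0.071), Ogt cKO replicate 2 (0.076), cKO control replicate 2 (0.091) or AD model replicate 2 (0.067). Against Aβ, Emp1 lost it without Ogt cKO replicate 1 (0.058), either cKO control replicate (0.052 each), either Aβ-treated replicate (0.053 each) or Aβ control replicate 1 (0.064), and Ptx3 without cKO control replicate 2 (0.065), Aβ-treated replicate 1 (0.053) or Aβ control replicate 1 (0.059).

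The control groups of the 3 experiments stood at unlike levels. Ptx3 ran in the order AD model (136 ± 113 FPKM, SD, n = 2 in each group), Ogt cKO (92.2 ± 3.04), Aβ-treated (60.6 ± 5.23), Aβ control (31.3 ± 5.53), AD control (8.79 ± 4.39) and cKO control (6.20 ± 3.32). The 2 groups at the top overlapped, as did the 2 at the bottom. Emp1 was highest in the Aβ control (83.3 ± 14.1 FPKM) and the Ogt cKO (71.3 ± 7.46), which overlapped, then in the Aβ-treated group (40.2 ± 1.41), AD control (25.1 ± 25.8), AD model (14.6 ± 16.4) and cKO control (6.81 ± 0.313), each overlapping the next. Tm4sf1 stood alone at the top in the Aβ-treated group (204 ± 25.3 FPKM), and the Aβ control (101 ± 25.97), Ogt cKO (96.3 ± 10.2), AD model (81.0 ± 52.3), AD control (43.8 ± 16.6) and cKO control (31.5 ± 3.26) each overlapped the next. Sphk1 was highest in the Ogt cKO (10.3 ± 0.445 FPKM), Aβ control (9.72 ± 2.32) and AD control (7.81 ± 5.57), then in the AD model (5.09 ± 0.766), with each overlapping the next, and lower without overlap in the Aβ-treated group (3.43 ± 0.433) and the cKO control (2.57 ± 0.667).

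Tgm1 was highest in the AD model (22.7 ± 14.4 FPKM) and the Aβ-treated group (22.4 ± 0.389), which overlapped. It was lower in the Ogt cKO (9.12 ± 1.15), AD control (7.87 ± 6.42) and Aβ control (3.42 ± 0.418), each overlapping the next, and lowest, without overlap, in the cKO control (0.726 ± 0.398). B3gnt5 was highest in the AD control (1.40 ± 0.0355 FPKM) and AD model (1.31 ± 0.710), which overlapped. The Aβ-treated group (0.559 ± 0.0444), Aβ control (0.427 ± 0.0875), Ogt cKO (0.315 ± 0.0470) and cKO control (0.195 ± 0.0125) followed without overlap. Cd109 ran from 9.17 ± 1.14 FPKM in the Ogt cKO through the AD control (8.93 ± 6.47), Aβ-treated group (7.43 ± 1.01), Aβ control (7.34 ± 3.85) and AD model (6.60 ± 5.14) to the cKO control (3.27 ± 0.0613), each overlapping the next. The cKO control was thus the lowest of the 6 groups for the 7 tested genes. The summed level of the 8 genes was 276 to 301 FPKM in the Ogt cKO and 46.2 to 56.5 in its control. It was 251.1 to 283 FPKM in the AD model and 63.8 to 144 in its control, and 318 to 360.4 in the Aβ-treated group and 206 to 268 in its control. Most of this sum came from Ptx3, Emp1 and Tm4sf1. In the AD model Ptx3 alone averaged 136 FPKM, against 8.79 in its control, and the median log2 change of the 7 genes there was -0.09.

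Other genes of the same panel were Clcf1, a cytokine of the IL-6 family, S100a10, which binds annexin A2, Ptgs2, the inducible prostaglandin synthase, and Cd14, a co-receptor for endotoxin that macrophages also make. For these genes and the lists below, the shares of all genes tested stand beside the counts. Of all genes, 22.6% rose and 19.8% fell in the Ogt cKO, 9.80% and 7.27% in the AD model, and 20.8% and 15.1% with Aβ. In the Ogt cKO 3 of the 4 rose (median log2 change 2.03). Ptgs2 averaged 95.7 ± 1.51 FPKM in the Ogt cKO and 2.66 ± 0.984 in the cKO control (adjusted p = 0.0049), Clcf1 18.005 ± 1.20 and 3.01 ± 0.395 (2.0e-04), and S100a10 278 ± 18.5 and 78.1 ± 4.22 (0.0053). In the AD model 2 of 4 rose (median 1.71), Clcf1 at 15.8 ± 0.0760 FPKM against 5.12 ± 1.48 (5.0e-04) and Cd14 at 323 ± 199 against 55.7 ± 52.9 (0.024). In the Aβ-treated group Cd14 rose, at 343 ± 37.8 FPKM against 68.4 ± 30.1 (0.025). There Clcf1 fell, at 10.9 ± 0.561 FPKM against 20.5 ± 0.535 (0.0041), and S100a10 fell, at 108 ± 2.58 against 310 ± 2.59 (0.0097; median of the 4 genes 0.28).

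The A1 and pan-reactive panels were measured in the same libraries. Beside their counts, 22.6% of all genes rose and 19.8% fell in the Ogt cKO. The shares were 9.80% and 7.27% in the AD model, and 20.8% and 15.1% with Aβ. Of 11 A1 genes tested, 2 rose and 3 fell in the Ogt cKO (median log2 change -0.06), among them the complement inhibitor Serping1 as a rise (1.49, adjusted p = 0.0045) and H2-D1 of MHC class I as a fall (-1.10, 0.023). In the AD model 7 rose and 1 fell (median 2.10), and in the Aβ-treated group 7 rose and 1 fell (median 2.69). The GTPase gene Iigp1 averaged 41.9 ± 15.0 FPKM in the AD model and 0.690 ± 0.454 in its control (4.1e-05), and 20.0 ± 2.81 in the Aβ-treated group and 0.0190 ± 0.0268 in its control (4.4e-05). Of 12 pan-reactive genes tested, 6 rose and 1 fell in the Ogt cKO (median 0.76), 4 rose and 1 fell in the AD model (0.17), and 6 rose and 2 fell in the Aβ-treated group (0.80). Lcn2, an iron-binding secreted protein, rose in all 3, at 22.2 ± 6.28 FPKM in the Ogt cKO against 2.75 ± 0.176, 397 ± 195 in the AD model against 13.5 ± 3.19, and 392 ± 21.7 in the Aβ-treated group against 14.8 ± 2.23 (adjusted p up to 0.0013). Whether the 3 panels differed from each other as lists was not tested.

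**Figure D3:**
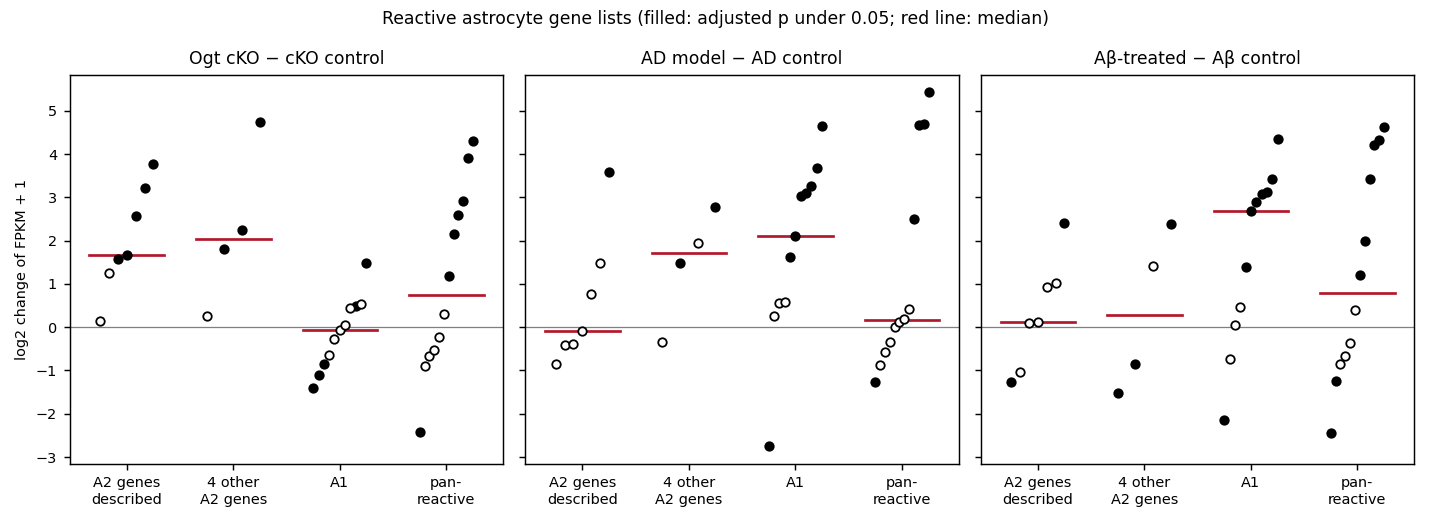
Change on the log2(FPKM + 1) scale (vertical axis) of single genes in 4 lists of reactive astrocyte genes, with 1 panel per experiment, red lines for list medians, and filled points for genes at an adjusted p under 0.05. The median of the 7 tested A2 genes was 1.67 in the Ogt cKO, -0.09 in the AD model and 0.13 with Aβ, and that of the A1 genes -0.06, 2.10 and 2.69.

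Genes from IL-6 family cytokines to STAT3, a pathway that feeds reactive astrocyte genes, moved in part. Of 17 tested, 6 rose and 4 fell in the Ogt cKO (median log2 change 0.06), where 22.6% of all genes rose and 19.8% fell. In the AD model 4 rose (0.37), beside 9.80% of all genes. In the Aβ-treated group 6 rose and 1 fell (0.39), beside 20.8% and 15.1%. Il6 rose in each, at 8.13 ± 0.0158 FPKM in the Ogt cKO against 0.279 ± 0.254 (adjusted p = 0.0011), 11.3 ± 3.06 in the AD model against 1.70 ± 1.40 (0.0022), and 9.51 ± 0.892 in the Aβ-treated group against 1.498 ± 0.396 (0.0018). The co-regulator Bcl3 rose in each as well, by 1.80, 1.33 and 2.10 on the log2 scale (adjusted p up to 0.0065). Among the falls in the Ogt cKO was the receptor gene Il6ra, at 0.572 ± 0.0234 FPKM against 2.33 ± 0.0949 (adjusted p = 0.0021 by limma). Stat3 itself was at 33.3 ± 3.24 FPKM in the Ogt cKO and 33.4 ± 0.0306 in its control.

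Around Sphk1, 16 genes that make, break down, export or sense sphingosine-1-phosphate were tested. Beside their counts, 22.6% of all genes rose and 19.8% fell in the Ogt cKO. With Aβ the shares were 20.8% and 15.1%, and in the AD model 9.80% and 7.27%. In the Ogt cKO 3 rose, Sphk1 included, and 1 fell (median -0.05). The receptor gene S1pr2 rose (14.7 ± 0.187 FPKM against 9.29 ± 0.225, adjusted p = 0.0060), and the phosphatase gene Sgpp1 fell (5.91 ± 0.155 against 13.4 ± 0.200, 0.016). In the Aβ-treated group 6 rose and 3 fell (median 0.16). The exporter gene Spns2 rose to 27.4 ± 8.95 FPKM in the Aβ-treated group, against 3.50 ± 1.09 in the Aβ control (0.0011), while S1pr2 fell (4.42 ± 0.0485 against 10.6 ± 0.481, 2.9e-04). In the AD model 3 rose (median 0.24), among them the receptor gene S1pr5 (2.94 ± 0.423 FPKM against 0.757 ± 0.283, 0.0083).

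Relatives of the 8 genes moved in various ways, beside the shares of all genes given for the lists above. Of the 4 EMP and PMP22 genes, 3 rose in the Ogt cKO and Pmp22 fell (37.5 ± 6.23 FPKM against 97.9 ± 2.65, adjusted p = 0.0024). Emp3 was at 175 ± 7.62 FPKM in the Ogt cKO against 34.9 ± 6.35 (0.023). Among 2 transglutaminases tested, Tgm2 rose with Tgm1 in the Ogt cKO (35.8 ± 1.43 FPKM against 15.5 ± 1.60, 0.042). Among 3 pentraxins, Nptx2 rose in the Ogt cKO (4.21 ± 1.42 FPKM against 0.438 ± 0.268, 0.034) and Nptxr fell (2.68 ± 0.0113 against 7.69 ± 0.249, 0.013). Of 6 genes of the B3GNT family tested, B3gnt9 rose (1.66, 0.0061) and B3gntl1 fell (-0.45, 0.043) in the Ogt cKO. With Aβ, B3gnt9 fell (-1.63, 0.0056) and B3gnt3 rose (2.80, 0.0012). Of 4 relatives of alpha-2-macroglobulin tested, Cd109 included, A2m and C4b fell in the Ogt cKO (-2.79 and -1.09, adjusted p = 0.018 and 0.024), and C3 and C4b rose in the AD model (5.11 and 1.41, 8.7e-04 and 0.016) and with Aβ (3.47 and 2.62, 0.0031 and 4.3e-04). Of 5 TM4SF genes only Tm4sf1 was tested, and of 7 SLC10 genes Slc10a3 and Slc10a7 were tested and did not pass in the 3 comparisons (adjusted p from 0.062 to 0.96).

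Markers of other cell types moved in the same libraries. Beside these counts and those of the remaining marker lists, 22.6% of all genes rose and 19.8% fell in the Ogt cKO. The shares were 9.80% and 7.27% in the AD model, and 20.8% and 15.1% with Aβ. Of 11 endothelial markers 8 rose in the Ogt cKO and 8 in the Aβ-treated group. Their summed level was 279 to 290.3 FPKM in the Ogt cKO and 43.5 to 54.0 in its control, 124 to 464 in the AD model and 91.3 to 229 in its control, and 831 to 1142 in the Aβ-treated group and 279 to 346 in its control. Of 8 pericyte and smooth muscle markers tested 5 rose in the Ogt cKO, and 6 fell in the AD model and 7 with Aβ. Of 6 cornified envelope genes tested, 5 rose in the Ogt cKO and 2 fell with Aβ. Their list of 18 genes, Tgm1 not among them, summed to 1150 to 1171 FPKM in the Ogt cKO and 8.92 to 30.8 in its control. It summed to 34.7 to 103 in the AD model and 59.7 to 346 in its control. With Aβ it was 221 to 265, and 1201 to 1637 in the Aβ control. Most of this sum came from Crct1, at a mean of 1032 FPKM in the Ogt cKO and 1292 in the Aβ control. In single libraries 4 to 11 of the 18 genes were at 0. Of 2 mesothelial and epithelial markers tested both rose in the Ogt cKO and fell with Aβ. The 10 mesothelial and epithelial markers, with 7 of them at 0 in some libraries, summed to 154 to 169 FPKM in the Ogt cKO and 0.745 to 2.31 in its control, 7.13 to 16.3 in the AD model and 7.18 to 15.4 in its control, and 16.1 to 19.3 in the Aβ-treated group and 131 to 199 in its control. Of 16 microglia and macrophage markers 9 fell in the Ogt cKO, 11 rose in the AD model, and 7 rose and 2 fell with Aβ. Of 11 astrocyte markers tested 8 fell in the Ogt cKO, 2 fell in the AD model, and 3 rose and 1 fell with Aβ. The part of these cell types in the changes of the A2 genes was not tested.

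The remaining marker lists moved as follows. Of 9 fibroblast and meningeal markers tested, 1 rose and 1 fell in the Ogt cKO, 5 fell in the AD model, and 1 rose and 4 fell with Aβ. Of 11 oligodendrocyte and precursor markers 8 fell in the Ogt cKO, 6 rose and 3 fell in the AD model, and 8 rose with Aβ. Of 3 neuron markers tested 1 rose in the Ogt cKO and 2 fell with Aβ. Of 3 ependymal and choroid plexus markers tested 1 rose and 1 fell in the Ogt cKO. The 1 neutrophil and blood marker tested rose in the 3 comparisons, with Hbb-bt, Hbb-bs and Hba-a2 at 0 in every library.

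The genes most like each A2 gene over the 12 libraries were found among 8698 genes, as a description in which libraries of 1 group share their level. Tm4sf1 was closest to Pkn3, Cdh5 and Plvap (Pearson r = 0.989, 0.987 and 0.984), of which Cdh5 and Plvap are endothelial genes. Cdh5 averaged 137 ± 9.07 FPKM in the Ogt cKO and 36.9 ± 2.80 in its control, 91.4 ± 60.5 in the AD model and 55.4 ± 14.2 in its control, and 289 ± 72.5 in the Aβ-treated group and 142 ± 9.49 in its control. Emp1 was closest to Abcg2, Baiap2l1 and Slc35b1 (r = 0.986, 0.984 and 0.984), and Abcg2, an efflux pump, averaged 15.4 ± 0.121 FPKM in the Ogt cKO and 5.15 ± 0.132 in its control. Ptx3 was closest to Cebpb, a transcription factor of inflammation (r = 0.955), to Nfkbib, an inhibitor of NF-kB (0.941), and to Hook2 (0.932). Sphk1 was closest to Dok5, Adamts14 and Asns (0.979, 0.971 and 0.968), Tgm1 to Ttc39b, Top2a and Spata13 (0.975, 0.962 and 0.952), Cd109 to Hdac2, Ppfibp1 and Nes (0.966, 0.953 and 0.947), and B3gnt5 to mt-Atp6, Smc4 and Fmr1 (0.915, 0.896 and 0.889).

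Among the A2 genes themselves the patterns were less alike. Over the 12 libraries the highest Pearson r between 2 of them was 0.746 (Emp1 and Cd109; Spearman rho 0.601). Emp1 was at r = 0.729 with Tm4sf1 and 0.722 with Sphk1, and Tgm1 at 0.706 with Tm4sf1. Ptx3 was at 0.641 with Tgm1 and 0.223 with Emp1, and the lowest value was -0.124 between Emp1 and B3gnt5.

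**Figure D4:**
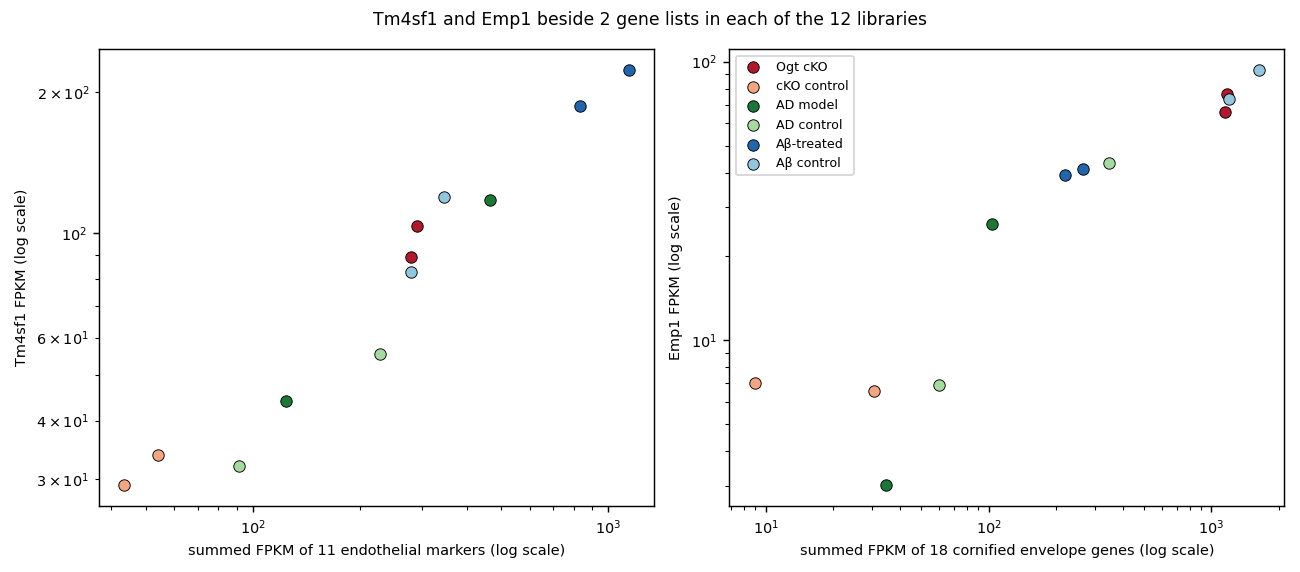
Tm4sf1 against the summed FPKM of 11 endothelial markers (left) and Emp1 against the summed FPKM of 18 cornified envelope genes (right), on log axes, with 1 point per library in the colour of its group; both pairs were chosen after the values were seen. Tm4sf1 was lowest in the cKO control, where the endothelial sum was 43.5 to 54.0 FPKM, and highest in the Aβ-treated group, where it was 831 to 1142. Emp1 was highest in the Aβ control and Ogt cKO libraries, where the cornified envelope sum was 1150 FPKM or more. Most of that sum came from Crct1.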

How the data were processed

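The authors deposited FPKM per gene and library (54532 genes, mm10 per the labels), read here with the gene lengths beside them. The aligner, counting tool, strand use and handling of multiply matching reads are named neither in the labels nor in the table. FPKM multiplied by length fell on whole reads (within 0.1 of a read, 100% of values), which gave the depths. The recovered totals were 0.886 to 1.10 times the library sizes behind the FPKM. The median over genes of the ratio to the mean of all libraries was the same, 1.01, in every library. The deposited values were thus already scaled to a like median gene, which holds the median change of all genes near 0. The members and gene lists were chosen with earlier results of these data known.

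The 14014 genes at 1 FPKM or more in at least 2 libraries were fitted on log2(FPKM + 1) by limma 3.58.1 (R 4.3.3): group means over all 12 libraries with a common spread and a mean-variance trend. Tests were two-sided, with Benjamini-Hochberg adjusted p-values over all 14014 genes and 0.05 as threshold. Adding 1 makes log2 changes of low genes too small. Effects were compared between experiments by contrasts in that model. The model was also run on simulated counts, with the same fixed spread in every library and changes planted in single comparisons. Such counts cannot test it for the wide spread of the AD replicates or for the contrasts between experiments. Apart from the members, genes were named as the up to 4 with the smallest p per list and comparison and the 3 closest to each member by Pearson r among genes reaching 5 FPKM in some group. Gfap, Tubb3 and Snap25 were added after their values were seen. Alternatives were other pseudocounts, filters and scalings, voom on recovered reads, replicate blocks (the crossed one chosen after seeing the data), fewer libraries and each library left out. Figures used matplotlib 3.10.9.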

Additional observations from a re-analysis of the deposited data

Results flagged for a closer look

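The effects of 2 experiments differed past the test for Emp1, Sphk1 and Ptx3, by limma over 14014 genes. The Ogt cKO effect minus the AD effect was 4.05 for Emp1 (adjusted p = 0.044) and 2.05 for Sphk1 (0.025) on the log2 scale. The Ogt cKO effect minus the Aβ effect was 4.23 for Emp1 (0.020), 2.93 for Sphk1 (0.0025) and 2.84 for Ptx3 (0.017). In these 2 contrasts 25.6% and 52.3% of all genes differed in either direction. Emp1 and Sphk1 were higher in the Ogt cKO than in its control in both libraries, as were 41.6% of all genes. Both were lower in the Aβ-treated group than in its control in both libraries, as were 40.2% of all genes. The fall of Emp1 with Aβ did not pass the test (-1.02 ± 0.89, adjusted p = 0.39 by limma), in which the SE takes in the spread of the AD replicates. It passed with the 4 Aβ libraries alone, a fit that called 41.5% of all genes.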

How the results depend on the processing

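With 1 library left out, the genes called numbered 1857 to 3213 in the Ogt cKO, and 2674 to 4033 with Aβ. The A2 genes called were then 1 to 3 in the Ogt cKO, 1 to 3 in the AD model and 0 to 1 with Aβ. Those whose effects differed were 0 to 4 for Ogt cKO minus AD, 1 to 3 for Ogt cKO minus Aβ and 0 to 1 for AD minus Aβ. With only the libraries compared, 278 genes and 0 A2 genes were called in the AD model, 5814 genes (41.5% of those tested) and 5 A2 genes with Aβ, and 0 A2 genes differed between Ogt cKO and AD. That last count was also 0 with no filter, where more genes were tested, and 1 with quantile normalization, rescaling to recovered reads, or voom. The share of all genes whose effects differed was not counted in these alternatives. Directions that reversed were all of changes past no threshold. In the AD model, log2 changes with 1 library left out ran from -2.22 to 0.54 for Emp1, -1.15 to 0.35 for Cd109, -1.07 to 0.32 for Sphk1 (its fall of -1.07 passed) and -0.41 to 0.23 for B3gnt5. With Aβ, Cd109 ran from -0.40 to 0.58, and quantile normalization gave -0.050 for Cd109 and -0.10 for B3gnt5. The difference of Ptx3 between Ogt cKO and AD ran from -0.77 to 1.15, and was -0.14 by quantile normalization and -0.061 after rescaling. The difference of Emp1 between AD and Aβ ran from -1.195 to 1.56. With the replicate number as a replicate block, 6007, 2378 and 5130 genes were called in the Ogt cKO, AD and Aβ comparisons (42.9%, 17% and 36.6% of those tested). The A2 genes called were 5, 1 and 3, and Tm4sf1 passed with Aβ (adjusted p = 0.0445 by limma). The deviations of same-numbered libraries from their group means correlated at r = 0.03, 0.55 and -0.17 in the Ogt cKO, AD and Aβ experiments. With 2 pairs each and no label that ties the numbers, pairing was not taken from these values, also where r was 0.55. A crossed block in the Aβ experiment called 5579 genes (39.8% of those tested) and 3 A2 genes. The cause of these changes was not tested. With 2 libraries per group, small changes and genes with few reads, such as B3gnt5 and Slc10a6, were not measurable with precision.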
